A study of Mus musculus with 8 samples.

Results

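The interleukins are secreted signals of immune and stromal cells, and the genes described here are those ligands together with their receptors. They were taken as the protein-coding entries of the deposited gene table whose symbol begins with Il and a number. The rule found 84 entries among 55421 genes, of which 21926 were protein-coding, and it used no measured value. The 84 entries carry 82 symbols, because Il11ra2 is listed under 3 identifiers. By role, 36 were ligands, 38 were receptors or receptor subunits, and 7 were antagonists, decoy receptors or binding proteins. The other 3 were Il4i1, an enzyme that oxidises amino acids, and Il1rapl1 and Il1rapl2, relatives of the IL-1 receptor that act at synapses.

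The RNA came from the tibiae and femurs of 8 wild-type male C57BL/6 mice aged 15 weeks when dosed. In the doxorubicin group (DoxoR), 4 mice received a single intraperitoneal dose of doxorubicin, 10 mg/kg, a chemotherapy drug that damages DNA. In the vehicle group (CTRL), 4 mice received saline. Bones were taken on day 30, with the ends cut off and the marrow spun out, and the bones of each mouse made 1 poly-A library. Both groups are therefore whole pieces of bone holding many cell types, and in such samples fewer cells of a type cannot be told apart from less RNA per cell.

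Interleukins act by joining receptor chains on the target cell. Members of the IL-1 family bind a specific chain that recruits an accessory chain and signals through MYD88 and NF-kappaB. IL-1, IL-33 and IL-36 share 1 accessory chain, and IL-18 uses another. The family has its own soluble antagonists and decoys. Most other interleukins use chains that lack an enzyme of their own and signal through JAK kinases and STAT factors, with the common gamma chain, the common beta chain or gp130 shared by whole groups of ligands. In bone, IL-1, IL-6, IL-11 and IL-17 are known to favour osteoclast formation, IL-4, IL-10 and IL-33 to restrain it, IL-34 to bind the receptor for macrophage colony-stimulating factor, and IL-7 and IL-15 to sustain lymphocytes.

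The start regions of 3 inflammatory ligands are shown because Il1a and Il6 had the smallest p among the ligands, while Il1b is the partner of Il1a at the same receptor. They are RefSeq promoter windows of build GRCm38.p6, from 250 bases before to 50 bases after the transcription start, given 5′ to 3′. Capitals mark matches, none of which overlap, on either strand, to the NF-kappaB consensus, to TGANTCA for AP-1, to TTNNGNAA for C/EBP and to TATAAA for the TATA box.
Il1a, chr2:129309923-129310222, strand -: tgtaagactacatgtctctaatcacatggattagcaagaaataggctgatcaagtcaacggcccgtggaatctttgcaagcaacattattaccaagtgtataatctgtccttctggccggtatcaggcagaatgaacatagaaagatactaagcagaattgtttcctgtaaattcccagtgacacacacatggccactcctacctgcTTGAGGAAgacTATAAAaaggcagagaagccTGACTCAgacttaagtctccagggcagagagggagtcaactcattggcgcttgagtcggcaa
Il6, chr5:30012864-30013163, strand +: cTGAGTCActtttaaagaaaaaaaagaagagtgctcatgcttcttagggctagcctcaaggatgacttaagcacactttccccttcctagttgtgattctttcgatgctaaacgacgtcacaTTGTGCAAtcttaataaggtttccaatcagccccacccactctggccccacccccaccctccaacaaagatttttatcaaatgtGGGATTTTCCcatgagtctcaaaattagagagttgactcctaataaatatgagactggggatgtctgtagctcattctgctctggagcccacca
Il1b, chr2:129371090-129371389, strand -: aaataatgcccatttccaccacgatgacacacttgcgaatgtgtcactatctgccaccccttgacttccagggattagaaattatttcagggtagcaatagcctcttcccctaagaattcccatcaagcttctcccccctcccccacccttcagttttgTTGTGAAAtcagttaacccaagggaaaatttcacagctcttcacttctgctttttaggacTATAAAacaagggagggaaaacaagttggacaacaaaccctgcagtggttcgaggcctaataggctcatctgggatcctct
The Il6 window held 1 match to the NF-kappaB consensus, GGGATTTTCC at bases 207 to 216 of the window, and 1 match each to AP-1 and C/EBP. The windows of Il1a and Il1b held no NF-kappaB match, but each held a TATA box and a C/EBP match, and that of Il1a also held TGACTCA at bases 239 to 245. Of all 32851 promoter windows in the table, 8.46% held the NF-kappaB consensus, 7.81% the AP-1 letters, 40.7% the C/EBP letters and 13.6% the TATA letters. The matches are descriptions of sequence only. Of the 82 symbols, 65 had a window in the table.

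The libraries held between 23699525 and 35747083 counts, and levels are given as CPM, the share of a library's counts scaled to a fixed total and by TMM, a correction for library composition. The bone markers were present in every library: the summed level of 9 osteoblast and osteocyte genes ran from 2540 to 8750 CPM in doxorubicin and from 3070 to 6050 CPM in vehicle bones. Marrow RNA remained as well, with 10 neutrophil genes summing to between 10400 and 21400 CPM in doxorubicin and between 12900 and 23000 CPM in vehicle bones. The 10 erythroid genes summed to between 13900 and 30000 CPM in doxorubicin and between 17800 and 35200 CPM in vehicle bones. All 10 had a log2 fold change below 0, against 42.8% of all tested genes, with 0 called. Skeletal muscle genes were uneven, from 10900 to 27800 CPM in doxorubicin and from 3390 CPM in CTRL 3 to 19900 CPM in vehicle bones.

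No member passed the threshold between the groups. In edgeR's quasi-likelihood test, fitted to all 17035 genes that passed a filter on low counts, 0 of the 52 members tested had an adjusted p under 0.05, against 0% of all genes. DESeq2 also called 0 members, against 0.17% of all genes, and limma-voom called 0, against 0%. At an unadjusted p under 0.05 edgeR placed 4 members, 7.69% of those tested, against 5.36% of all genes. They were Il1a, Il1rl1 and Il6, lower in doxorubicin (3.23% of all genes were lower at this level), and Il1rn, higher in doxorubicin (2.13% of all genes were higher). DESeq2 and limma-voom placed the same 4 genes at an unadjusted p under 0.05. The groups did not overlap in 2 members, Il1a and Il1rl1, both lower (1.95% of all genes), and in 0 members higher (1.64%). Shares of 4 and 2 members are near the background, so these counts are no result about the family.

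Ligands and receptors differed in how many could be measured at all. Of the 36 ligands, 14 passed the filter, 15 had a few counts and 7 had none. Of the 38 receptor entries, 32 passed and 6 had a few counts. Among the tested ligands 5 lay above and 9 below a log2 fold change of 0, with a median of −0.15, and among the tested receptors 16 lay above and 16 below, with a median of 0.00. The median of all tested genes was 0.04, and 42.8% of them lay below 0. The filter itself keeps genes that are high in either group, so these medians describe only what passed it.

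**Figure D1:**
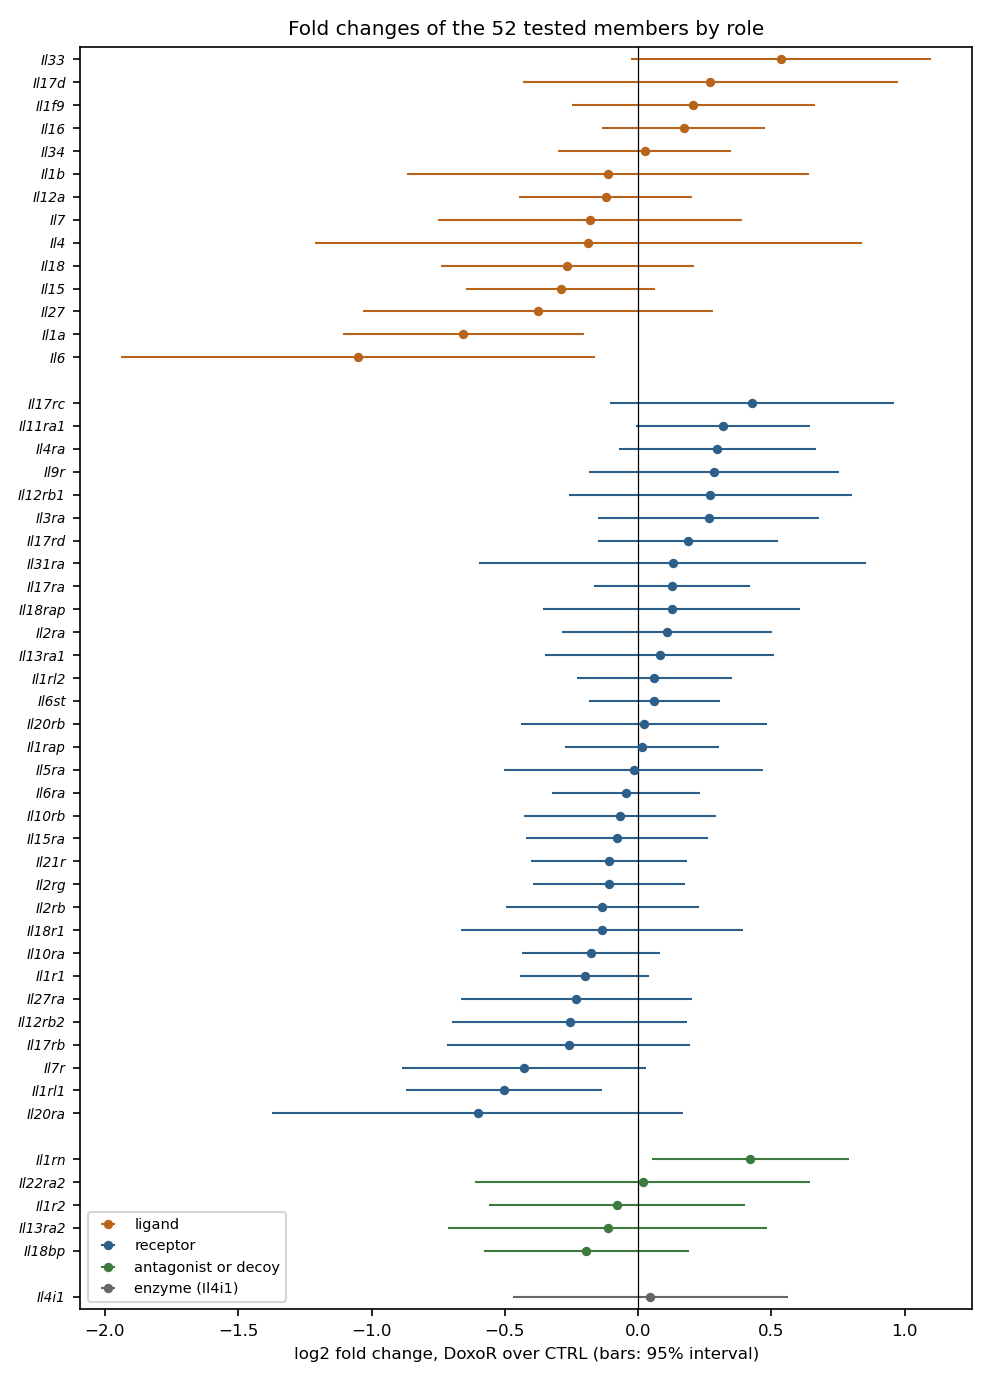
Log2 fold change, doxorubicin (DoxoR) over vehicle (CTRL), of the 52 tested members, grouped by role, with 95% intervals from edgeR's quasi-likelihood fit (n = 4 each). The intervals of Il1a, Il6, Il1rl1 and Il1rn do not cross 0 before adjustment, and all other intervals do.

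Il1a and Il1b encode the agonists of the IL-1 receptor. Il1a, the gene of IL-1 alpha, a cytokine that dying cells release in active form, had 4.09, 6.22, 6.78 and 6.51 CPM in DoxoR 1 to 4, against 8.43, 8.40, 12.4 and 8.0 CPM in CTRL 1 to 4. Every doxorubicin library lay below every vehicle library, and CTRL 3 stood above the rest of its group. The log2 fold change was −0.66 ± 0.20 (SE, n = 4 each), and the adjusted p was 0.825 in edgeR and 0.297 in DESeq2. All 9 megakaryocyte markers lay below 0 as well (42.8% of all genes did), with 0 called. Of these markers, 6 were at an unadjusted p under 0.05 (3.23% of all genes) and 3 had no overlap between the groups (1.95% of all genes). The 9 summed to between 816 and 1290 CPM in doxorubicin and between 1250 and 1960 CPM in vehicle bones. DoxoR 1 was the lowest doxorubicin library and CTRL 3 the highest vehicle library in both this sum and Il1a. DoxoR 2, however, had 6.22 CPM of Il1a at a sum of 1290 CPM, against 8.43 CPM at 1250 CPM in CTRL 1. Of 8 macrophage markers 7 lay below 0, with sums between 393 and 561 CPM in doxorubicin and between 440 and 697 CPM in vehicle bones. Among them 1, Vsig4, was lower at an unadjusted p under 0.05 (3.23% of all genes), and 1, Adgre1, was lower without overlap (1.95% of all genes). None of the macrophage markers was called. No marker of either list was at 0 counts, and the part of these cells in the level of Il1a was not tested. Exons of Il1a overlap the antisense gene Gm14023, and those of Il1b overlap Il1bos.

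Il1b, the gene of IL-1 beta, which inflammasomes activate, had 14.7, 14, 34.6 and 25.6 CPM in doxorubicin and 25.6, 23.3, 33.4 and 13.7 CPM in vehicle bones. Its groups overlapped fully, and the log2 fold change was −0.11 ± 0.34 (SE, n = 4 each). It was 0.049 without CTRL 3, 0.021 without DoxoR 1 and 0.030 without DoxoR 2. The libraries highest in Il1b, DoxoR 3 and CTRL 3, were also the highest of their group in summed neutrophil markers (21400 and 23000 CPM), but CTRL 1 reached 25.6 CPM of Il1b at the lowest neutrophil sum of the vehicle libraries, 12900 CPM. The part of neutrophils in the level of Il1b was not tested.

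The natural antagonist of both, Il1rn, which blocks the IL-1 receptor without signalling, had 30.1, 39.5, 41.9 and 29.8 CPM in doxorubicin and 27.1, 31.6, 26.6 and 20.4 CPM in vehicle bones. CTRL 2 overlapped with DoxoR 1 and DoxoR 4. The log2 fold change was 0.42 ± 0.17 (SE, n = 4 each), with an adjusted p of 0.856 in edgeR and 0.817 in DESeq2. Per kilobase of exon, Il1rn stood at 2.62, 2.26, 2.20 and 1.63 times the level of Il1a in DoxoR 1 to 4, and at 1.15, 1.34, 0.765 and 0.909 times in CTRL 1 to 4. These ratios do not overlap between the groups, but both genes were picked out after their values were seen, so no test is given. Against Il1a and Il1b together the ratio was 0.556, 0.680, 0.351 and 0.322 in doxorubicin and 0.277, 0.347, 0.202 and 0.328 in vehicle bones, and the groups overlapped. Il1r2, the decoy receptor that binds IL-1 but does not signal, had 23.5, 20.7, 29.8 and 20.5 CPM in doxorubicin and 25.3, 34.5, 23.9 and 16.3 CPM in vehicle bones. The vehicle libraries spanned the doxorubicin range, and the log2 fold change of −0.08 ± 0.21 (SE, n = 4 each) was 0.097 without CTRL 2.

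The signalling receptor Il1r1 had 36.3, 34.9, 30.2 and 31.7 CPM in doxorubicin and 39.3, 40.7, 39.5 and 33.3 CPM in vehicle bones. CTRL 4 was the one vehicle library within the doxorubicin range, and the log2 fold change was −0.20 ± 0.11 (SE, n = 4 each). The accessory chain Il1rap, which completes the receptors of IL-1, IL-33 and IL-36, averaged 18.4 ± 2.26 CPM in doxorubicin and 18.2 ± 2.14 CPM in vehicle bones (SD, n = 4 each).

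IL-33 is an alarm signal stored in the nuclei of barrier, endothelial and stromal cells, and its receptor ST2 is encoded by Il1rl1. Il1rl1 had 10.9, 13.9, 15.6 and 10.4 CPM in doxorubicin, against 15.7, 17.7, 21.8 and 16.8 CPM in vehicle bones. The groups were separate by a narrow margin, 15.6 CPM in DoxoR 3 against 15.7 CPM in CTRL 1. The log2 fold change was −0.50 ± 0.17 (SE, n = 4 each), with an adjusted p of 0.856 in edgeR and 0.426 in DESeq2. Mast cells and basophils carry this receptor, and their 8 markers summed to between 49.9 and 68.4 CPM in doxorubicin and between 59.0 and 79.6 CPM in vehicle bones. Of these markers 7 lay below and 1 above 0, with 0 called and none at 0 counts. DoxoR 3 and CTRL 3 were the highest of their group in both this sum and Il1rl1. CTRL 4, however, had 16.8 CPM of Il1rl1 at the lowest vehicle sum, 59.0 CPM, against 15.6 CPM at 68.4 CPM in DoxoR 3. The part of these cells in the level of Il1rl1 was not tested. The ligand Il33 ran the other way, at 1.96, 1.41, 1.15 and 1.74 CPM in doxorubicin and 1.16, 1.40, 0.889 and 0.878 CPM in vehicle bones. Its groups overlapped, with a log2 fold change of 0.54 ± 0.25 (SE, n = 4 each) and an adjusted p of 0.856 in edgeR.

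Il18, made in precursor form by macrophages and stromal cells, had 6.18, 8.08, 10.3 and 6.51 CPM in doxorubicin and 6.86, 9.19, 12.1 and 9.25 CPM in vehicle bones. The groups overlapped, with DoxoR 3 and CTRL 3 the highest of their group. Il18 had a log2 fold change of −0.27 ± 0.21 (SE, n = 4 each), which was −0.15 without CTRL 3, −0.45 without DoxoR 3 and −0.12 with residual marrow as a covariate. Its soluble inhibitor Il18bp had 8.0, 9.28, 12.3 and 11.8 CPM in doxorubicin and 11.4, 10.5, 14.5 and 10.9 CPM in vehicle bones, and its groups overlapped. The receptor chain Il18rap had 38.7, 42.7, 76.2 and 72.1 CPM in doxorubicin and 47.5, 52.9, 58.0 and 52 CPM in vehicle bones. The doxorubicin libraries thus split into a low and a high pair around the vehicle range. DoxoR 3 and DoxoR 4, the high pair, also had the higher neutrophil sums of that group, 21400 and 18000 CPM, against 10400 and 10700 CPM in DoxoR 1 and DoxoR 2. CTRL 3, with a neutrophil sum of 23000 CPM, had 58.0 CPM of Il18rap. The part of neutrophils in that split was not tested.

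Among the IL-36 genes, Il1f9, which encodes IL-36 gamma, was the only ligand with more than 2 counts. It had 20.0, 20.9, 26.9 and 25 CPM in doxorubicin and 15.1, 16.7, 29.1 and 19.3 CPM in vehicle bones, and the groups overlapped, since CTRL 3 was the highest library. Its receptor Il1rl2 averaged 9.99 ± 1.37 CPM in doxorubicin and 9.59 ± 0.518 CPM in vehicle bones (SD, n = 4 each). The antagonist Il1f5 and the ligand Il1f6 had 0 counts.

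The genes of the IL-1 receptor group lie beside each other on chromosome 1, and they did not share a direction. Their log2 fold changes were −0.08 for Il1r2, −0.20 for Il1r1, 0.06 for Il1rl2, −0.50 for Il1rl1, −0.14 for Il18r1 and 0.13 for Il18rap, in doxorubicin over vehicle.

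**Figure D2:**
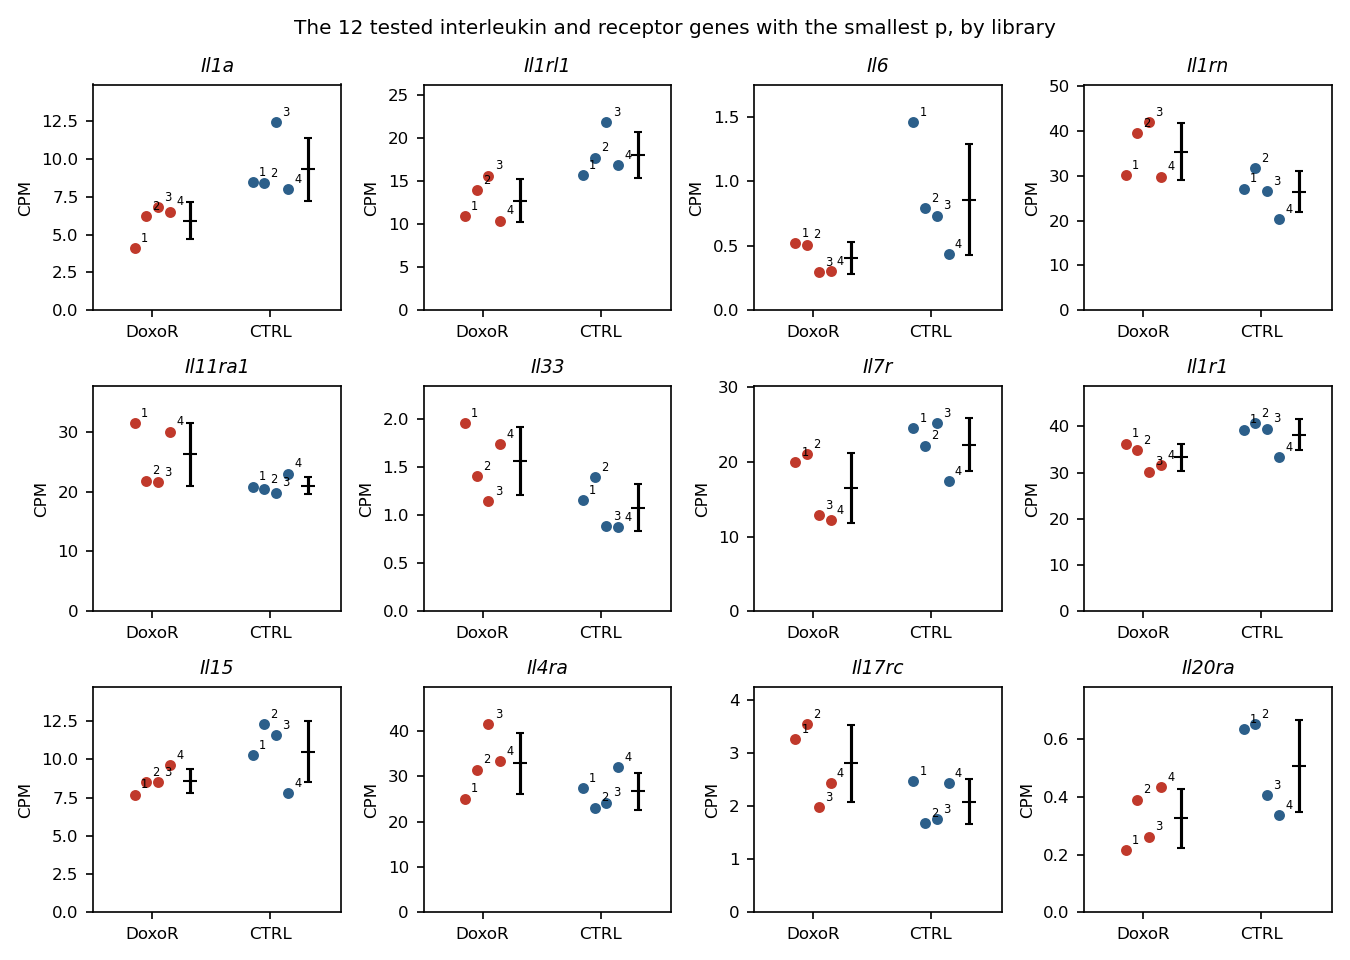
CPM of the 12 tested members with the smallest p, 1 panel a gene, with the doxorubicin libraries (DoxoR) left of the vehicle libraries (CTRL); numbers name the libraries and bars give the mean ± SD (n = 4 each). Il1a and Il1rl1 show no overlap between the groups, and the CTRL 1 library stands high for Il6 at 1.46 CPM.

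Il6, a cytokine of the acute response that also drives RANKL in bone-forming cells, was near the lower limit of what could be tested. It had 0.522, 0.511, 0.296 and 0.304 CPM in doxorubicin and 1.46, 0.793, 0.736 and 0.439 CPM in vehicle bones, from 12, 17, 9 and 7 reads in DoxoR 1 to 4 and 39, 17, 29 and 13 reads in CTRL 1 to 4. CTRL 4 lay within the doxorubicin range. The log2 fold change was −1.05 ± 0.40 (SE, n = 4 each), with an adjusted p of 0.856 in edgeR and 0.748 in DESeq2, and it was −0.67 without CTRL 1. Il6ra, the specific receptor chain, had 33.3, 42, 44.3 and 41.4 CPM in doxorubicin and 43.6, 35.5, 41.3 and 45.8 CPM in vehicle bones. Il6st, which encodes the shared chain gp130, had 161, 188, 154 and 176 CPM in doxorubicin and 172, 149, 168 and 162 CPM in vehicle bones. Both chains overlapped between the groups, and the 95% interval of the log2 fold change ran from −0.32 to 0.23 for Il6ra and from −0.19 to 0.31 for Il6st.

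IL-11 also signals through gp130 and is known to act in bone formation and resorption. Il11 had 6, 2, 0 and 3 reads in DoxoR 1 to 4 and 3, 3, 1 and 1 reads in CTRL 1 to 4, too few to test. Its receptor Il11ra1 had 31.4, 21.8, 21.6 and 30.0 CPM in doxorubicin and 20.8, 20.4, 19.8 and 23.0 CPM in vehicle bones. DoxoR 1 and DoxoR 4 were high while the other doxorubicin libraries lay within the vehicle range. The same libraries had the highest sums of skeletal muscle markers in their group, 27800 and 25900 CPM, against 12900 and 10900 CPM in DoxoR 2 and DoxoR 3. In vehicle bones these sums were 19400, 19900, 3390 and 18100 CPM in CTRL 1 to 4, and the part of muscle in the level of Il11ra1 was not tested. The log2 fold change was 0.32 ± 0.15 (SE, n = 4 each), the adjusted p was 0.856 in edgeR, and the difference was 0.20 without DoxoR 1. Il11ra2 is a near copy of Il11ra1, so reads may be split between them: its 3 identifiers held 17, 17 and 9 reads in all, and the pair with 17 had the same count in every library.

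Of the IL-12 group, Il12a averaged 9.01 ± 0.308 CPM in doxorubicin and 9.78 ± 1.77 CPM in vehicle bones (SD, n = 4 each). Il12b, which it needs to form IL-12, had 8 reads over the doxorubicin and 10 over the vehicle libraries, and Il23a, the specific part of IL-23, had 9 and 18. Ebi3, a partner of Il12a in IL-35 and of Il27 in IL-27, averaged 7.28 ± 1.65 CPM in doxorubicin and 7.51 ± 1.58 CPM in vehicle bones (SD, n = 4 each). Il27 itself, with a log2 fold change of −0.38, shares exon positions with Apobr on the opposite strand.

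The common gamma chain Il2rg, used by IL-2, IL-4, IL-7, IL-9, IL-15 and IL-21, had 16, 21.5, 23.6 and 19.8 CPM in doxorubicin and 22.4, 21.7, 21.6 and 21.7 CPM in vehicle bones. The vehicle libraries lay close together within the wider doxorubicin range. Il7r, which carries the signal that lymphocyte precursors need, had 20.0, 21.1, 12.9 and 12.2 CPM in doxorubicin and 24.5, 22.2, 25.2 and 17.4 CPM in vehicle bones. CTRL 4 was the only vehicle library within the doxorubicin range, and the log2 fold change was −0.43 ± 0.20 (SE, n = 4 each), with an adjusted p of 0.856 in edgeR. The low pair, DoxoR 3 and DoxoR 4, also had the lower B lymphoid sums of that group, 237 and 190 CPM, against 311 and 334 CPM in DoxoR 1 and DoxoR 2. The vehicle libraries did not follow that order: CTRL 4, lowest in Il7r, had a B lymphoid sum of 277 CPM, and CTRL 2 had the lowest sum, 220 CPM, with 22.2 CPM of Il7r. The 9 B lymphoid markers summed to between 190 and 334 CPM in doxorubicin and between 220 and 333 CPM in vehicle bones, with 5 above and 4 below 0. The 10 T and NK cell markers summed to between 39.1 and 77.0 CPM in doxorubicin and between 56.0 and 80.6 CPM in vehicle bones, with 2 above and 8 below 0. In neither list was a gene called or a marker at 0 counts, and the part of lymphocytes in the level of Il7r was not tested.

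The ligand Il7 had 4.39, 5.35, 3.29 and 3.91 CPM in doxorubicin and 3.15, 3.97, 6.98 and 5.0 CPM in vehicle bones. CTRL 3 was the highest library, the groups overlapped, and the log2 fold change of −0.18 was 0.032 without CTRL 3. Il15, which sustains NK and memory T cells, had 7.70, 8.50, 8.53 and 9.64 CPM in doxorubicin and 10.3, 12.3, 11.6 and 7.80 CPM in vehicle bones. CTRL 1 to 3 lay above the doxorubicin range and CTRL 4 lay at its low end. For Il15 the log2 fold change was −0.29 ± 0.16 (SE, n = 4 each). With 1 library left out it ran from −0.44 without CTRL 4 to −0.22 without CTRL 2. Il15ra, which presents IL-15 to other cells, had 10.1, 9.52, 11.2 and 11.6 CPM in doxorubicin and 12.3, 13.7, 9.62 and 9.32 CPM in vehicle bones, with the doxorubicin libraries inside the vehicle range.

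Receptors of IL-4 and IL-13, ligands of type 2 immunity, were well measured. Il4ra had 25.1, 31.5, 41.5 and 33.3 CPM in doxorubicin and 27.4, 23.1, 24.2 and 32.1 CPM in vehicle bones. DoxoR 3 was the highest, the groups overlapped, and the log2 fold change of 0.30 ± 0.17 (SE, n = 4 each) was 0.14 without that library. Il13ra1, which pairs with Il4ra outside lymphocytes, had 29.4, 31.4, 44.8 and 39.5 CPM in doxorubicin and 28.7, 38.6, 43.6 and 26.4 CPM in vehicle bones, and the groups overlapped. The ligand Il4 had 33 reads over the doxorubicin and 40 over the vehicle libraries, Il13 had 2 and 3, and Il5 had 7 and 3. Il3, their neighbour on chromosome 11, had 0. Il3ra, the specific chain of the IL-3 receptor, had 5.61, 8.83, 10.1 and 8.99 CPM in doxorubicin and 5.96, 6.95, 7.44 and 7.63 CPM in vehicle bones. DoxoR 1 was the lowest library while the other doxorubicin libraries lay above the vehicle range, and the log2 fold change of 0.26 ± 0.19 (SE, n = 4 each) was 0.14 without DoxoR 3.

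IL-10 limits macrophage activation. Il10 had 7, 12, 8 and 4 reads in DoxoR 1 to 4 and 4, 6, 13 and 6 reads in CTRL 1 to 4 and did not pass the filter. Its specific chain Il10ra had 29.0, 31.5, 36.3 and 29.0 CPM in doxorubicin and 38.1, 36.8, 36.5 and 30.8 CPM in vehicle bones. CTRL 4 was the one vehicle library within the doxorubicin range, and the log2 fold change was −0.18 ± 0.12 (SE, n = 4 each). With 1 library left out it ran from −0.28 without DoxoR 3 to −0.14 without DoxoR 4, and it was −0.27 without CTRL 4. Il10rb, shared with other ligands of the family, had 38.7, 45.9, 52.1 and 42.1 CPM in doxorubicin and 40.0, 39.5, 61.7 and 46.2 CPM in vehicle bones. CTRL 3 stood highest and the groups overlapped. Il20ra had 0.217, 0.391, 0.263 and 0.434 CPM in doxorubicin and 0.637, 0.653, 0.406 and 0.338 CPM in vehicle bones, which overlapped, with a log2 fold change of −0.60 ± 0.34 (SE, n = 4 each). Like Il6 it was near the lower limit of testing, with 5, 13, 8 and 10 reads in DoxoR 1 to 4 and 17, 14, 16 and 10 in CTRL 1 to 4.

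In the IL-17 family, the ligands Il17a and Il17f had few or no reads beside their receptor chains. Il17a, the cytokine of T helper 17 cells, had 0 counts, and Il17f had 3 reads over the doxorubicin and 13 over the vehicle libraries, 7 of them in CTRL 3. Il17ra, the chain shared across the family, had 67.6, 84.0, 96.2 and 83.6 CPM in doxorubicin and 73.3, 69.2, 72.4 and 88.3 CPM in vehicle bones. DoxoR 1 was the lowest library, the groups overlapped, and the 95% interval of the log2 fold change ran from −0.16 to 0.42. Il17rc, its partner for IL-17A and IL-17F, had 3.26, 3.54, 1.98 and 2.43 CPM in doxorubicin and 2.47, 1.68, 1.75 and 2.43 CPM in vehicle bones. DoxoR 1 and DoxoR 2 stood above the vehicle range, and the log2 fold change of 0.43 ± 0.24 (SE, n = 4 each) was 0.26 without DoxoR 2. Il17d, a ligand found outside lymphocytes, averaged 0.828 ± 0.222 CPM in doxorubicin and 0.684 ± 0.252 CPM in vehicle bones (SD, n = 4 each).

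Il34 and Il16 belong to none of these families. Il34, the second ligand of the receptor encoded by Csf1r, had 11.7, 14.9, 13.1 and 12.1 CPM in doxorubicin and 10.8, 13, 15.5 and 11.7 CPM in vehicle bones. The groups overlapped, the log2 fold change was 0.02, and the 95% interval ran from −0.30 to 0.35. Csf1r averaged 83.9 ± 13.7 CPM in doxorubicin and 71.9 ± 15.0 CPM in vehicle bones (SD, n = 4 each). Il16, which attracts CD4-bearing cells, had 54.5, 59.8, 67.7 and 59.4 CPM in doxorubicin and 44.9, 46.9, 64.5 and 58 CPM in vehicle bones. The groups overlapped, with CTRL 1 and CTRL 2 the lowest, and the log2 fold change of 0.17 ± 0.14 (SE, n = 4 each) was 0.089 without DoxoR 3, 0.095 without CTRL 1 and 0.097 without CTRL 2. Its exons share positions with Stard5 on the opposite strand.

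Levels of different genes were compared per kilobase of exon. Over all 8 libraries the 14 tested ligands ran from 13.1 CPM per kb for Il1f9 through 12.1 for Il1b, 8.30 for Il18, 7.24 for Il16 and 6.57 for Il34 to 0.261 for Il6. Neighbours in that order overlapped between libraries, with the exception of a gap between Il1a, lowest library 2.07, and Il7, highest library 1.23 CPM per kb. The 32 tested receptors ran from 15.0 CPM per kb for Il6st through 12 for Il10rb, 9.58 for Il10ra, 9.50 for Il13ra1 and 9.16 for Il17ra to 0.172 for Il20ra, and each overlapped with the next. Members that did not pass the filter lay lower than the lowest tested member of their role, up to 0.197 CPM per kb for the ligand Il10 and 0.0577 CPM per kb for the receptor Il11ra2.

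Set side by side, several receptors stood far above their ligand in both groups. Il6 was at 0.168 ± 0.0514 CPM per kb in doxorubicin and 0.353 ± 0.178 in vehicle bones, while Il6ra was at 4.66 ± 0.558 and 4.81 ± 0.514 CPM per kb (SD, n = 4 each). For Il7 the levels were 0.748 ± 0.153 and 0.843 ± 0.292 CPM per kb in doxorubicin and vehicle bones, and for Il7r 3.56 ± 1.00 and 4.79 ± 0.763 (SD, n = 4 each). Several pairs went the other way, among them IL-36: Il1f9 was at 14.1 ± 2.00 CPM per kb in doxorubicin and 12.2 ± 3.81 in vehicle bones, and Il1rl2 at 1.47 ± 0.201 and 1.41 ± 0.0760 (SD, n = 4 each). Il18 averaged 7.54 and 9.06 CPM per kb in doxorubicin and vehicle bones, above Il18r1 at 1.85 and 2.03. The second IL-18 receptor chain, Il18rap, averaged 8.50 and 7.79 CPM per kb. Il15 averaged 3.80 and 4.65 CPM per kb, above its specific chain Il15ra at 2.39 and 2.52 and the chain Il2rb at 2.31 and 2.54. The common gamma chain Il2rg, also part of the IL-15 receptor, stood above Il15 at 8.48 and 9.16 CPM per kb. IL-21 had 0 reads over the doxorubicin and 3 over the vehicle libraries, while its receptor Il21r was at 4.97 ± 0.660 and 5.37 ± 0.572 CPM per kb (SD, n = 4 each).

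**Figure D3:**
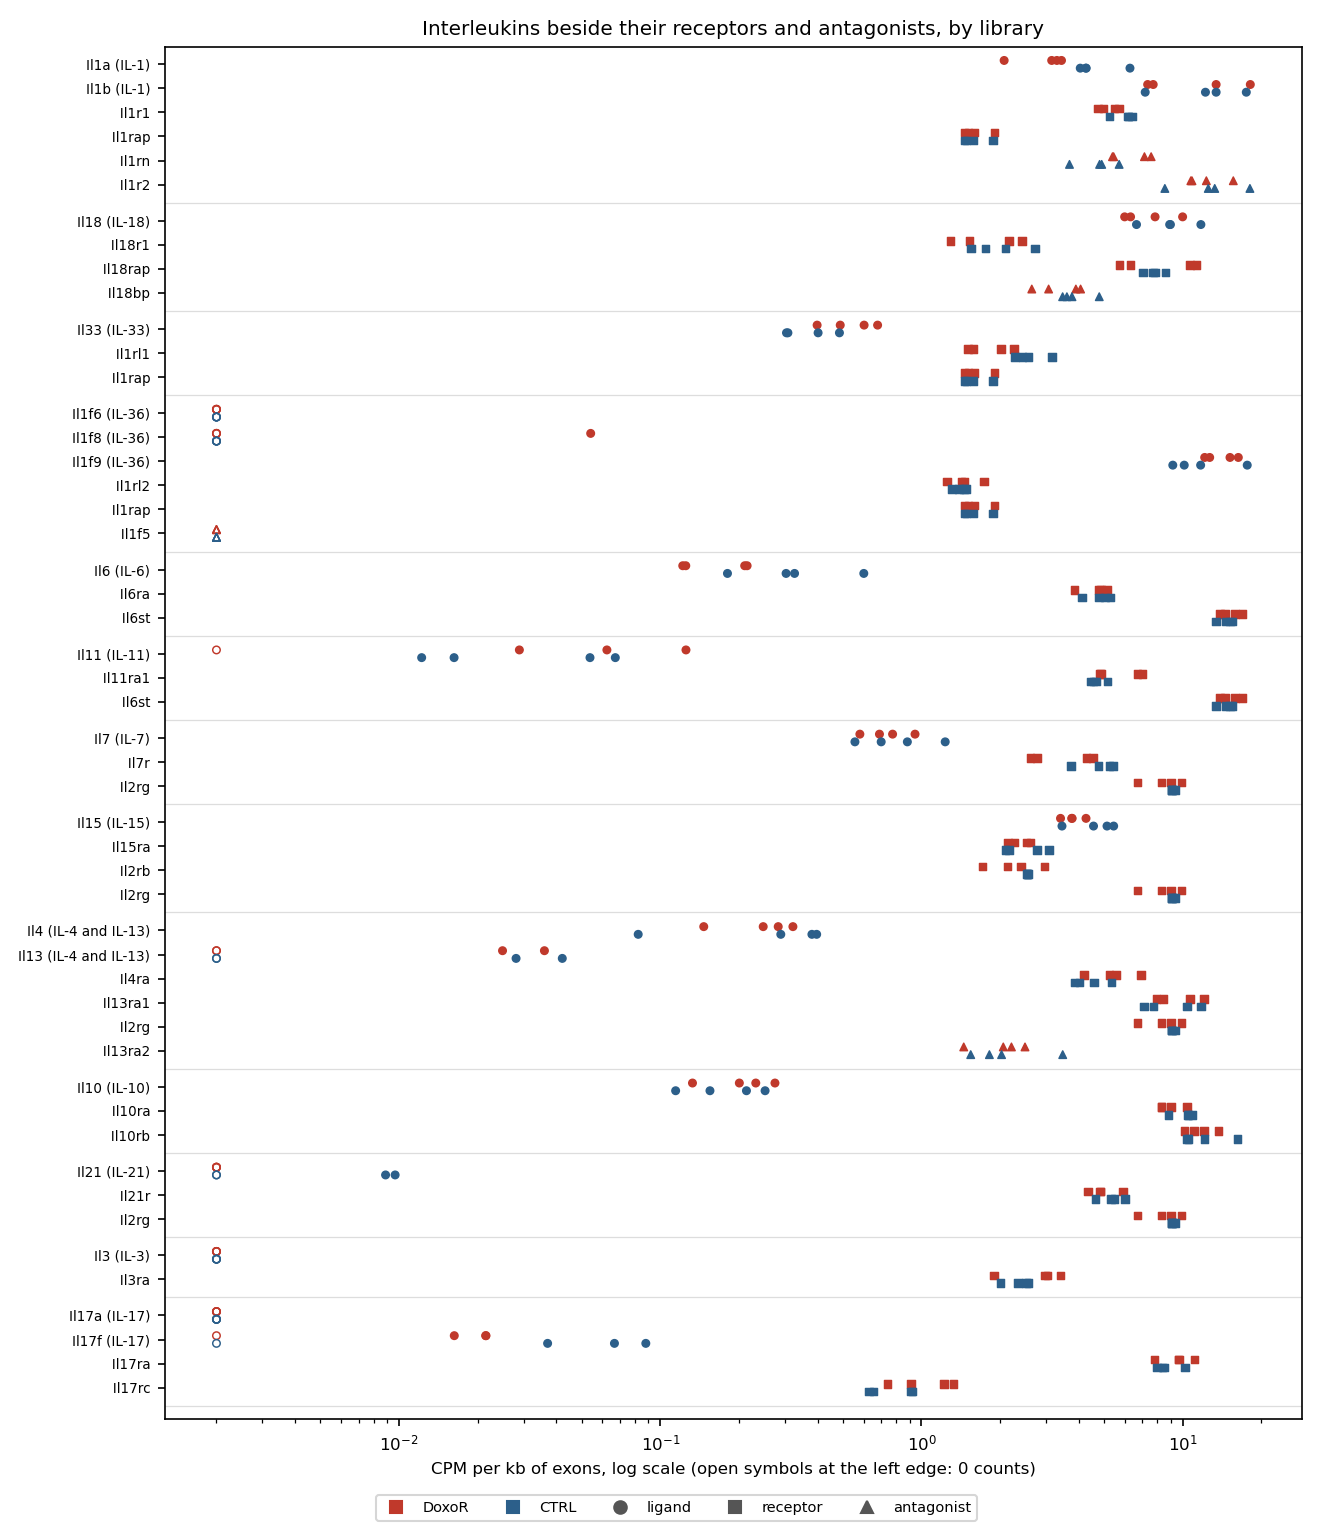
CPM per kb of exons on a log axis for ligands (circles), receptor chains (squares) and antagonists or decoys (triangles), 1 symbol a library, doxorubicin (DoxoR) above vehicle (CTRL); open symbols at the left edge are libraries with 0 counts. The 4 doxorubicin and 4 vehicle symbols overlap for most genes, and the ligands Il6, Il11, Il10, Il21, Il3, Il17a and Il17f lie to the left of their receptors.

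The 10 entries with no count in any library were Il17a, Il20, Il24, Il31, Il3, Il9, Il1f6, Il1f5, Il1f10 and Il1rapl2. With counting error alone, a count of 0 allows up to 3 reads, or between 0.0762 and 0.140 CPM a library. A further 22 entries had between 1 and 60 reads over all libraries and did not pass the filter. Il10 with 60 and Il17re with 59 were the highest of these. Further tested receptors were Il2ra, Il2rb, Il5ra, Il9r, Il12rb1, Il12rb2, Il17rb, Il17rd, Il18r1, Il20rb, Il21r, Il27ra and Il31ra, and their log2 fold changes lay between −0.26 for Il17rb and 0.28 for Il9r. The decoys Il13ra2 and Il22ra2 and the enzyme Il4i1 lay between −0.12 and 0.05.

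Genes that carry the signal of these receptors were read from 7 lists of 80 genes, of which 78 were tested and 0 called. At an unadjusted p under 0.05, 1 was higher (2.13% of all genes were) and 2 were lower in doxorubicin (3.23% of all genes were), so these counts are no result about the lists. Jak2, the kinase of the IL-3, IL-5 and IL-12 receptors, had 96.6, 94.8, 94.8 and 95.6 CPM in doxorubicin, against 124, 141, 122 and 103 CPM in vehicle bones. The doxorubicin libraries lay close together below every vehicle library, with a log2 fold change of −0.36 ± 0.11 (SE, n = 4 each) and an adjusted p of 0.825 in edgeR. Socs4, a feedback inhibitor, had a log2 fold change of −0.32 ± 0.13, and Stat2, best known from interferon signalling, one of 0.24 ± 0.10 (SE, n = 4 each). The groups did not overlap in 1 gene lower, Jak2 (1.95% of all genes), and in 2 genes higher, Traf3ip2 and Ikbkg (1.64% of all genes). Traf3ip2, the adaptor of IL-17 receptors, stood at 3.65, 3.91, 4.15 and 3.60 CPM in doxorubicin and 2.89, 3.08, 2.92 and 3.48 CPM in vehicle bones. Ikbkg, the regulatory subunit of the kinase that releases NF-kappaB, stood at 32.4, 31.5, 33.9 and 36.8 CPM in doxorubicin and 29.6, 28.1, 31.1 and 29.9 CPM in vehicle bones.

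By list, the 11 JAK and STAT genes had 8 above and 3 below 0 and a median log2 fold change of 0.10, and the 8 SOCS genes had 4 above and 4 below and a median of −0.01. The 19 genes of IL-1 receptor signalling had 10 above and 9 below and a median of 0.01, and the 11 of inflammasomes and IL-1 processing had 7 above and 4 below and a median of 0.02. The 8 of IL-17 signalling had a median of −0.09, with 3 above and 5 below. The 17 shared or related subunits and ligands without an Il symbol had 12 above and 5 below and a median of 0.15, and the 4 tested macrophage genes that respond to IL-4 and IL-13 had 3 above and 1 below and a median of 0.06. In each list 0 genes were called, so the directions were not told apart from the spread between mice.

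**Figure D4:**
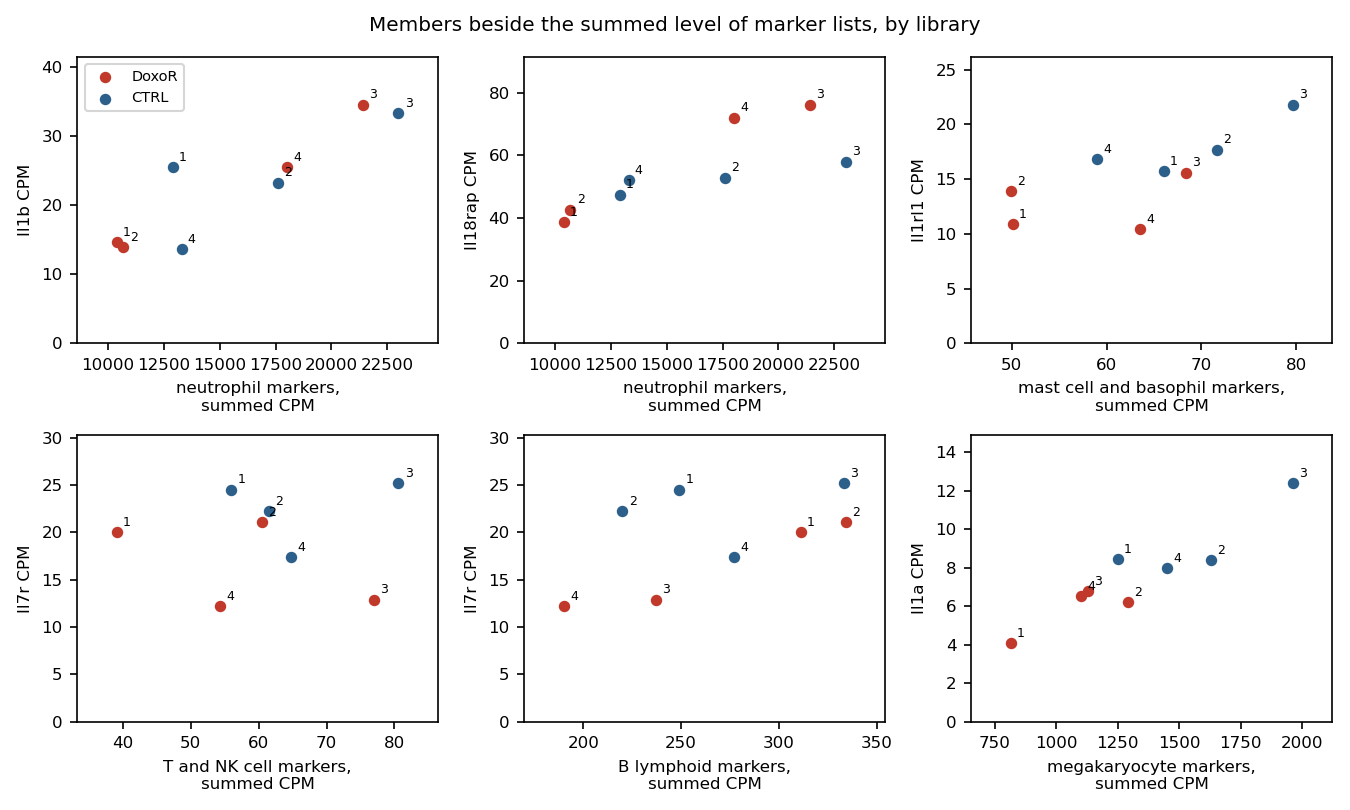
CPM of 5 members, chosen after their values were seen, against the summed CPM of a marker list in the same library; red is doxorubicin (DoxoR), blue is vehicle (CTRL), and numbers name the libraries. DoxoR 3 and CTRL 3 had the highest Il1b, Il18rap and neutrophil sums of their groups, but CTRL 1 had as much Il1b as DoxoR 4 (25.6 CPM) at the lowest vehicle neutrophil sum, and CTRL 3 had less Il18rap than DoxoR 4 at a higher sum. Megakaryocyte markers ran from 816 to 1290 CPM in doxorubicin and from 1250 to 1960 CPM in vehicle bones beside Il1a, and DoxoR 2 had less Il1a than CTRL 1 at a higher sum.

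Osteoclast markers also lay beside these values. All 8 osteoclast markers lay above 0, with summed levels between 1100 and 1440 CPM in doxorubicin and between 572 and 1380 CPM in vehicle bones. Of these, 3 were at an unadjusted p under 0.05 (2.13% of all genes), 2 had groups that did not overlap (1.64% of all genes) and 0 were called. The 2 were Dcstamp and Oscar, and for Oscar DoxoR 4 and CTRL 4 both rounded to 5.77 CPM. Mmp9 is counted in both the osteoclast and the neutrophil list. None of these markers was at 0 counts, and the part of osteoclasts in the level of any member was not tested.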

How the data were processed

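Poly-A RNA from marrow-depleted tibiae and femurs of 8 mice was sequenced from a stranded kit, per the labels' protocols. The deposited values were read here in the unit of expected counts per gene, and all were whole numbers. Named in the submitters' processing notes are RSEM 1.3.0, a read quantifier, the aligner STAR 2.5.3a and the human build GRCh38, although the gene identifiers are those of mouse. Annotation release, strand setting and use of the unique molecular identifiers were not given in the sources used here. Limits printed for a count of 0 cover counting error only, since PCR copies may be counted as reads. Of the tested members, 19 have an exon that overlaps another gene in GENCODE M21. For 16 of them, such as Il11ra1 with Ccl27a, such a gene lies on the opposite strand, and whether reads were divided by strand is not given. On the same strand, Il10rb overlaps Gm21970, Il2rg overlaps Gm20489, Il31ra overlaps Gm3226 and Il4i1 overlaps Nup62. A division by strand would not separate these.

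The edgeR test used filterByExpr (minimum count 10, minimum total 15), TMM scaling and a robust quasi-likelihood fit of group alone (edgeR 4.0.16, R 4.3.3), two-sided, adjusted by Benjamini-Hochberg over 17035 genes, with a threshold of 0.05. SE comes from the F statistic. The biological coefficient of variation was 0.219. Levels per kb divide CPM by the union of exons in GENCODE M21, in which all 84 entries were found by identifier; the lengths RSEM used are not known. Alternatives were DESeq2 1.42.0, limma-voom from limma 3.58.1, other scalings and filters, a marrow covariate, the replicate number as a block and each library left out. The fit was tested on simulated data. No 2 libraries agreed within sampling noise (chi-square per degree of freedom at least 29).

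Members, lists and roles were chosen with earlier results of these data known. Values by library are given for the 12 tested members of smallest p, for the 5 highest ligands and 5 highest receptors per kb, and for a set of 24 listed by name. Other members, such as Il18rap, Il1rl2, Il12a and Il27, were named after their values were seen.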

Additional observations from a re-analysis of the deposited data

Results flagged for a closer look

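In 3 of the groups of 4 libraries 1 library stood far from the other 3, by a rule that chance meets in about 1 of 20 groups. The rule was read in both groups of all 52 tested members, so 3 groups are fewer than that share. Il1a stood at 12.4 CPM in CTRL 3, where the other vehicle libraries lay between 8.0 and 8.43 CPM; without CTRL 3 its log2 fold change was −0.52. Il12rb1, a chain shared by the IL-12 and IL-23 receptors, stood at 1.04 CPM in DoxoR 1, against 1.48 to 1.56 CPM in the other doxorubicin libraries. Il2rg stood at 22.4 CPM in CTRL 1, against 21.6 to 21.7 CPM in the other vehicle libraries, a small gap in a tight group.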

How the results depend on the processing

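No member was called under any of the 17 alternatives. The number at an unadjusted p under 0.05, 4 in the test as reported, was 9 with the marrow covariate, ran from 3 to 7 with 1 library left out (7 without CTRL 4, DoxoR 1 or DoxoR 3) and was between 3 and 6 otherwise. Il1a and Il1rl1 were among them in every one of the 17, Il6 in all but 4 and Il1rn in all but 5. The filter of 1 CPM in 4 libraries, counted among those 4, removed Il6 before testing. The adjusted p of Il1a lay between 0.297 and 1.00 over the alternatives, and that of Il6 between 0.380 and 1.00.

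Sign changes were seen in members close to 0. Il10rb was 0.043 with the marrow covariate, and Il34 was −0.024 with library size as the only scaling. With 1 library left out, Il10rb ran from −0.17 to 0.055, Il34 from −0.080 to 0.097, Il13ra1 from −0.058 to 0.18, Il15ra from −0.19 to 0.012, Il1b from −0.43 to 0.049, Il1r2 from −0.27 to 0.097, Il6ra from −0.13 to 0.019, Il6st from −0.021 to 0.090 and Il7 from −0.34 to 0.032. The median of the tested ligands, −0.15, ran from −0.27 to −0.01 with 1 library left out, and that of the receptors from −0.11 to 0.03.

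The replicate block left 0 members called and 6 at an unadjusted p under 0.05. Whether the replicate numbers pair the mice cannot be decided from expression values. Same-numbered libraries deviated with correlations of 0.342, −0.266, 0.430 and 0.0902. DoxoR 1 and DoxoR 3 were most like the CTRL library of their number, and DoxoR 2 and DoxoR 4 were not. Of the 36 ligands, 22 were too low to test, 7 of them with no count; a lack of expression and a lack of depth cannot be told apart for these.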
